A study of Mus musculus with 9 samples.

Results

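Gene expression in sorted retinal ganglion cells from crushed retinas with a conditional knockout of the zinc transporter ZnT3 (CKO) was set against that in cells from uninjured wild-type retinas (Ctrl). The comparison took 6 of the 9 libraries of the study, 3 CKO and 3 Ctrl, by their labels, and 15317 of the 24772 entries of the gene table passed the expression filter and were tested. CKO mice lacked ZnT3, the product of Slc30a3, in amacrine cells, and their cells were collected 3 days after optic nerve crush. Ctrl mice were wild type and had no crush. The remaining 3 libraries (ONC) came from wild-type mice at the same day after crush and are shown here only beside genes of the comparison. All 3 groups carry the same label for the sorted cell, primary retinal ganglion cell. Crush and genotype both differ between CKO and Ctrl, and intact knockout retinas were not analysed here, so their effects cannot be told apart. The Cre line, the alleles and the age of the mice are not given in the sources used here. The labels do not say that libraries of a group came from separate mice, so p-values measure spread among these libraries only, part of which may be technical.

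Retinal ganglion cells are the projection neurons of the retina, and a crush of the optic nerve breaks their axons. Amacrine cells are interneurons that synapse onto ganglion and bipolar cells and release mostly GABA or glycine. ZnT3 moves zinc into synaptic vesicles, and free zinc inside cells is bound by metallothioneins, whose genes are switched on by the zinc-sensing transcription factor Mtf1. Müller glia span the retina, and after injury they are known in mice to raise the intermediate filament gene Gfap and to make growth factors and cytokines such as Fgf2 and Cntf.

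Total counts were 21861237 to 23549482 in the CKO libraries and 14166996 to 25571715 in the Ctrl libraries. The first principal component of log2 CPM, the read count scaled by effective library size, separated CKO from Ctrl and held 41% of the variance. Replicates correlated across genes at r = 0.965 to 0.966 within CKO and 0.958 to 0.961 within Ctrl, and libraries of different groups at 0.939 to 0.947. Slc30a3, which was deleted in amacrine cells, had 1, 4 and 2 counts in CKO and 2, 10 and 16 counts in Ctrl, too few to be tested. The wild-type ONC libraries held 0, 1 and 0 counts, so counts at this level do not check the genotype. The sorted material was not dominated by ganglion cell RNA: 18 rod markers took 9.99% to 10.3% of the counts in CKO and 9.09% to 9.18% in Ctrl, while 22 ganglion cell markers took 0.016% to 0.0191% in CKO and 0.0226% to 0.0348% in Ctrl. The ganglion cell transcription factor gene Pou4f2 reached 0.0437 CPM in 1 CKO library and was listed at 0 in the other CKO libraries, and it had 0.0904, 1.998 and 0 CPM in the Ctrl libraries. Each value is thus of mixed sorted material, and fewer cells of a type cannot be told apart from less RNA per cell.

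Of the 15317 genes and loci, 1628 (10.6%) were called higher and 1392 (9.09%) lower in CKO at an edgeR adjusted p under 0.05 with no fold minimum, 19.7% in all. The rises were more often small: 279 higher and 595 lower calls had a log2 fold change of at least 1 in size, and 63 and 156 of at least 2. The median log2 fold change was 0.59 among the higher and -0.89 among the lower calls, against 0.002 over all tested entries. The groups did not overlap for 36.6% of entries, with all 3 CKO libraries above all 3 Ctrl libraries for 18.1% and below them for 18.5%. With library totals in place of the scaling used here, 1176 were called higher and 1728 lower, and the median over all entries was -0.073. A model that also held the ONC libraries called 689 higher and 710 lower, of which 1381 were also called with 6 libraries. Without CKO replicate 1, 1068 were called higher.

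**Figure D1:**
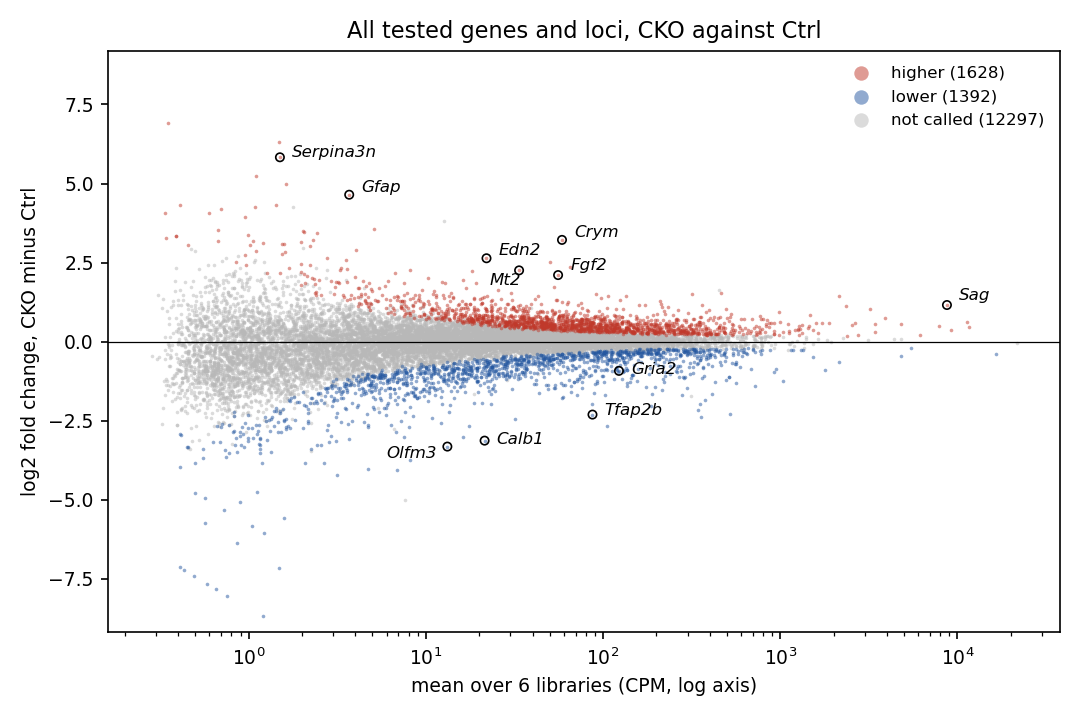
Log2 fold change (CKO minus Ctrl) of each of the 15317 tested genes and loci against its mean over the 6 libraries (CPM, log axis), with the 1628 higher calls in red, the 1392 lower calls in blue and the others in grey. The widest changes lay at low and middle levels, and the abundant rod gene Sag was among the higher calls.

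The 15 largest rises by fitted log2 fold change, among genes with a mean of at least 4 CPM and no overlap between groups, were led by Bcl3. This partner of NF-kB had 10.7, 9.57 and 8.02 CPM in CKO and 0, 0.482 and 1.81 CPM in Ctrl (log2 fold change 3.55 ± 0.77 SE, adjusted p 0.00741). The call of Bcl3 was not made by DESeq2 (adjusted p 0.0505) or without an expression filter (edgeR adjusted p 0.0849). Crym, the gene of the thyroid hormone-binding protein mu-crystallin (ENSMUSG00000030905, chromosome 7, 120186380 to 120202111, GRCm38), had 120.3, 112 and 85.6 CPM in CKO and 7.91, 16.7 and 10.1 CPM in Ctrl (3.22 ± 0.22, adjusted p 4.84e-07). Edn2, which encodes the peptide endothelin 2, had 37.9, 38.3 and 37.5 CPM in CKO and 5.83, 6.89 and 5.63 CPM in Ctrl (2.64 ± 0.18, adjusted p 3.77e-07). The rule took only genes without overlap, so in each of the 15 the lowest CKO library was above the highest Ctrl library. The acute-phase transcription factor gene Cebpd rose by 2.22 ± 0.31, the BMP antagonist gene Chrdl1 by 2.18 ± 0.49, the stress-induced gene Gadd45b by 2.00 ± 0.32 and the mitochondrial membrane gene Tspo by 1.93 ± 0.44 on the log2 scale. Psmb8, the actin-associated gene Pdlim3, Mt2, Fgf2, the lysophospholipase gene Lypla2, Tmem120b, Cntf and Gm47283, a gene model on chromosome Y, complete the 15, whose fitted folds of CKO over Ctrl were 3.685 to 11.69. All 3 ONC libraries also lay above all 3 Ctrl libraries for 11 of the 15, with Bcl3, Cebpd, Chrdl1 and Cntf the exceptions. The same Ctrl libraries served to pick the 15, and the share of all entries with ONC above Ctrl was not counted.

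The 15 largest falls by the same rule were led by Gabra3. The gene, which encodes the GABA-A receptor alpha 3 subunit (ENSMUSG00000031343, chromosome X, 72432681 to 72656848), had 0.448, 1.02 and 0.84 CPM in CKO and 20.7, 7.38 and 10.8 CPM in Ctrl (-4.08 ± 0.45, adjusted p 2.37e-05). Cbln2, a secreted synapse organiser, averaged 1.13 ± 0.172 CPM in CKO and 15.2 ± 2.58 CPM in Ctrl (SD, n = 3 each), and Olfm3, an olfactomedin family gene, 2.40 ± 0.795 CPM in CKO and 24.1 ± 2.06 CPM in Ctrl. Calb1, the calcium buffer calbindin, had 4.41, 4.81 and 3.92 CPM in CKO and 15.6, 50.7 and 49.3 CPM in Ctrl (-3.13 ± 0.37, adjusted p 7.16e-05). Ctrl replicate 1 was well below the other Ctrl libraries for Calb1 and, as the rule required, above every CKO library. The collagen genes Col6a1 and Col11a1 had log2 fold changes of -3.03 and -2.69, the adhesion genes Pcdh10 and Tenm1 of -2.87 and -2.53, and the synaptotagmin gene Syt7 of -2.65. Igfbp2, which binds insulin-like growth factors, fell by 2.54 and was not called without CKO replicate 3 (adjusted p 0.0581) or Ctrl replicate 2 (0.0553). The other falls among the 15 were of Epb41l4a, AI593442, the Ras activator gene Rasgrp1, the membrane protease gene Tmprss11a and Gfra1. All 3 ONC libraries lay below all 3 Ctrl libraries for each of the 15. These genes too were picked with the same Ctrl libraries, and the share of all entries with ONC below Ctrl was not counted.

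**Figure D2:**
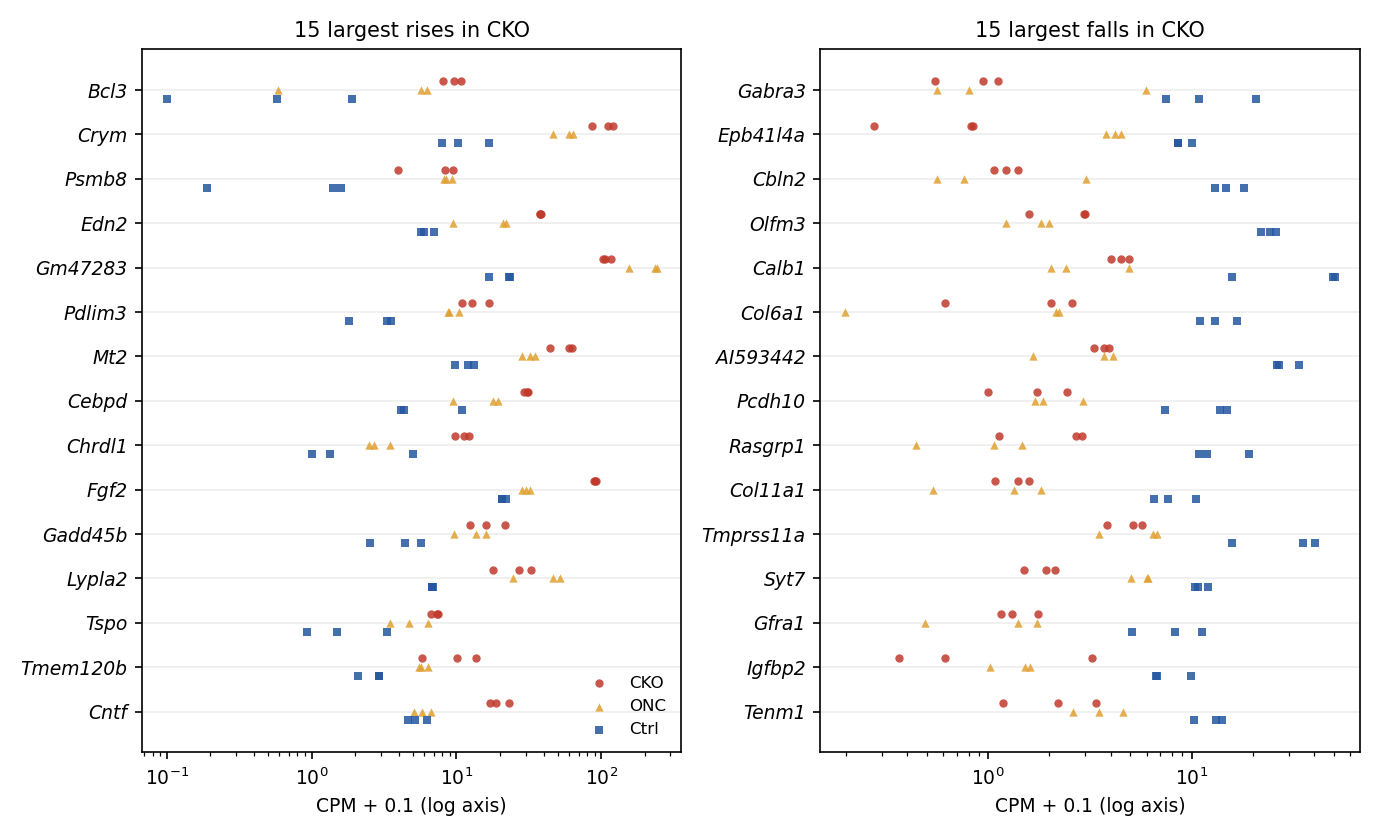
CPM in each library (plus 0.1, log axis) of the 15 largest rises and the 15 largest falls in CKO, with CKO as red circles, ONC as orange triangles and Ctrl as blue squares. Most ONC points lie on the CKO side of Ctrl, while for Fgf2 and Cntf they lie near Ctrl and for Syt7 and Epb41l4a between CKO and Ctrl.

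CKO and ONC libraries differed in the model of all 9 libraries for 5 of these 30 genes: Fgf2, Cntf and Gm47283 among the rises and Syt7 and Epb41l4a among the falls. Syt7 had 2.02, 1.40 and 1.82 CPM in CKO, 5.92, 5.98 and 4.95 CPM in ONC and 11.98, 10.3 and 10.7 CPM in Ctrl (CKO against ONC adjusted p 0.0285). Gm47283 averaged 108 ± 7.08 CPM in CKO and 20.97 ± 3.63 CPM in Ctrl (SD, n = 3 each), and its ONC libraries held 242, 156 and 234 CPM (CKO against ONC adjusted p 0.0433). CKO against ONC and CKO against Ctrl share the CKO libraries, which also served to pick the 30 genes. The share of all entries called for CKO against ONC was not counted, so 5 of 30 cannot be read as many or few.

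Among the metallothioneins, Mt2 and Mt1 were called higher and Mt3 was not called. The genes of the list that holds the metallothioneins, Mtf1 and an Mtf1-driven exporter were all tested, and 2 of 5 were called higher, where 10.6% of all entries were. Their promoters are shown first, as the 250 bases before each RefSeq transcription start on the plus strand of chromosome 8 in GRCm38.p6, with capitals for matches to the core letters of the metal response element bound by Mtf1 (TGCACNC or TGCGCNC, either strand).

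Mt1 (chr8:94178839-94179088): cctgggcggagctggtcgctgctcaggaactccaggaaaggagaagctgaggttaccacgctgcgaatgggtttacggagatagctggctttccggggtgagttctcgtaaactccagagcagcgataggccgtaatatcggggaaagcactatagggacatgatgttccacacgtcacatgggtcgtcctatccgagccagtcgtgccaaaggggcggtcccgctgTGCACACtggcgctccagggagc

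Mt2 (chr8:94172368-94172617): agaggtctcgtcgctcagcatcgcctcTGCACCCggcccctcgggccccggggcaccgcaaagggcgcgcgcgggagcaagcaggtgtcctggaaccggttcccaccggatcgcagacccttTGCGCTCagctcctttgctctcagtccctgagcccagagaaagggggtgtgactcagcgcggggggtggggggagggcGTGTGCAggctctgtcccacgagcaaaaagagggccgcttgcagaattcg

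Mt3 (chr8:94152357-94152606): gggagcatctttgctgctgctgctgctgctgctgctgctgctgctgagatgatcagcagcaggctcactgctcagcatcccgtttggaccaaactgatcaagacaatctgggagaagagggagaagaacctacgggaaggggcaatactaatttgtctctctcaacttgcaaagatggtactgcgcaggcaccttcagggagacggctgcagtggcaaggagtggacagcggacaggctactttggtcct

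Mt2 held 3 matches in this window, 50 to 223 bases before the start, Mt1 held 1 and Mt3 held 0. Of 32851 promoters of the same length in the table, 21.4% held at least 1 match and 5.17% at least 2. With the 50 bases after the start included, Mt2 held 4, Mt1 held 3 and Mt3 held 1, and 1.97% of the promoters held 3 or more. A match describes letters and not a bound site.

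Mt2 (ENSMUSG00000031762) had 43.8, 62.9 and 60.1 CPM in CKO and 13.2, 9.71 and 11.96 CPM in Ctrl, with no overlap between the groups (log2 fold change 2.25 ± 0.18, adjusted p 1.76e-06). Mt1 (ENSMUSG00000031765) had 203, 268 and 246 CPM in CKO and 107, 91.6 and 125 CPM in Ctrl (1.15 ± 0.12, adjusted p 1.5e-05), so both isoforms that most cells make moved in the same direction. Mt3, the form enriched in brain, had 21.02, 19.6 and 22.8 CPM in CKO and 10.9, 11.4 and 19.8 CPM in Ctrl, groups that overlapped (0.58 ± 0.23, adjusted p 0.0975). Without Ctrl replicate 3, the high Ctrl library, Mt3 was called higher (adjusted p 0.0104). Mtf1 averaged 55.8 ± 5.50 CPM in CKO and 52.3 ± 3.61 CPM in Ctrl (SD, n = 3 each) and was not called. In ONC, Mt2 had 32.0, 34.7 and 28.4 CPM and Mt1 116, 221 and 104 CPM, and neither differed from CKO past the threshold (CKO against ONC adjusted p 0.0514 for Mt2 and 0.108 for Mt1). Müller glia, which are rich in metallothioneins in the mouse retina, also gave more marker RNA in CKO, with sums of 2250 to 2510 CPM in CKO and 1480 to 1520 CPM in Ctrl, and the part of this in the rise of Mt1 and Mt2 was not tested.

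Of 18 zinc transporter genes that were tested, 4 were called higher by edgeR and 0 lower (22.2% and 0%, against 10.6% and 9.09% of all entries). At an unadjusted p under 0.05, 1 was lower, as was 1 in DESeq2, and the median log2 fold change was 0.25. The 4 were Slc30a9, Slc30a5, Slc39a6 and Slc39a7, transporters of intracellular membranes apart from Slc39a6, which sits at the cell surface. Their log2 fold changes were 0.38 ± 0.08, 0.43 ± 0.13, 0.74 ± 0.25 and 0.68 ± 0.19 in that order. None of the 4 was called in the model of all 9 libraries (edgeR adjusted p 0.0522, 0.0851, 0.11 and 0.106; 0 zinc transporters were called there). With a correction for GC content and length, 2 zinc transporters were called higher. Under 19 alternatives to the main fit, the call was lost in 3 for Slc30a9, 9 for Slc30a5, 11 for Slc39a6 and 5 for Slc39a7. Leaving out single libraries was among the settings that ended calls. Slc30a5 was not called without CKO replicate 1, CKO replicate 2, Ctrl replicate 1 or Ctrl replicate 3 (adjusted p 0.141, 0.0768, 0.106 and 0.0652). Slc39a7 was not called without CKO replicate 1, CKO replicate 3 or Ctrl replicate 3 (0.0809, 0.0544 and 0.0657), and Slc39a6 only kept its call without Ctrl replicate 2 (0.00276).

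**Figure D3:**
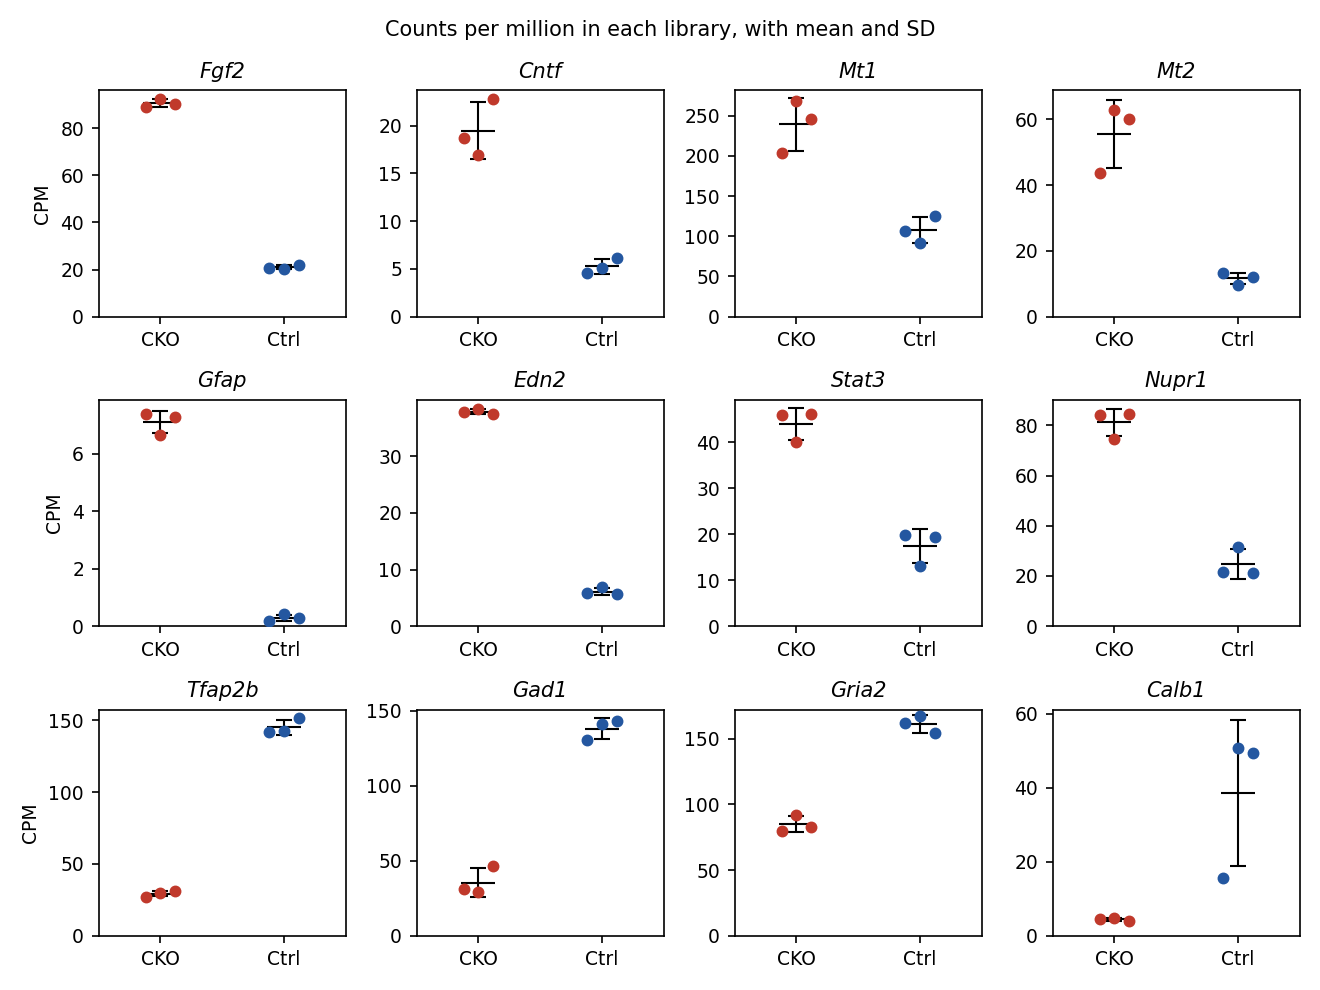
CPM in each of the 3 CKO and 3 Ctrl libraries for 12 genes of the comparison, with the mean as a short line and the SD as whiskers; every axis starts at 0. All 12 are called genes, and of the 3020 calls only 36 had groups that overlapped. The groups do not overlap for any of the 12, nor for 36.6% of all tested entries. The spread within a group was widest for Calb1 in Ctrl.

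Growth factor and cytokine genes moved both ways. Of 22 tested genes of the list of ligands, receptors and feedback genes, 6 were called higher and 3 lower (27.3% and 13.6%, against 10.6% and 9.09% of all entries), and the median was 0.22. With limma on log2 of deposited FPKM values plus 1, 3 were higher. Fgf2, the basic fibroblast growth factor (ENSMUSG00000037225, chromosome 3, 37348346 to 37410108), had 88.9, 92.3 and 90.3 CPM in CKO and 20.7, 20.4 and 21.98 CPM in Ctrl (2.10 ± 0.12, adjusted p 5.3e-08). The ONC libraries held 28.1, 32.3 and 30.01 CPM of Fgf2, close to Ctrl and far below CKO (CKO against ONC adjusted p 0.000534). Its span shares 5199 bases with Nudt6 on the opposite strand, and without strand in the reads the 2 genes could trade counts. Nudt6 also rose, with 13.5 CPM in CKO and 5.80 CPM in Ctrl (means of 3; 1.23 ± 0.25, adjusted p 0.0028), much less than Fgf2.

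Cntf, the ciliary neurotrophic factor that signals through the gp130 receptor (ENSMUSG00000079415, chromosome 19, 12763660 to 12765632), had 18.7, 16.9 and 22.8 CPM in CKO and 4.56, 5.10 and 6.13 CPM in Ctrl (1.88 ± 0.23, adjusted p 7.18e-05). In ONC it had 5.66, 6.62 and 4.99 CPM, overlapping Ctrl (CKO against ONC adjusted p 0.0183). All 1973 bases of Cntf lie within the span of Zfp91 on the same strand, and Zfp91 was not called, with 57.8 CPM in CKO and 54.8 CPM in Ctrl (means of 3; 0.08 ± 0.11). The gp130 gene Il6st and its transcription factor Stat3 rose as well. Stat3 had 45.9, 40.1 and 46.1 CPM in CKO and 19.8, 13.2 and 19.5 CPM in Ctrl (1.33 ± 0.17, adjusted p 0.000119). Il6st averaged 25.6 ± 0.598 CPM in CKO and 14.2 ± 2.72 CPM in Ctrl (SD, n = 3 each; adjusted p 0.00519, but 0.365 in limma on log2(FPKM + 1)). Bdnf, a neurotrophin gene, rose by 1.46 ± 0.37 and was not called without CKO replicate 2 (adjusted p 0.0646). Fgf1 fell by 2.26, Gfra1, a GDNF co-receptor, fell by 2.62 and Fgf12, an intracellular FGF-like partner of sodium channels, fell by 1.45 on the log2 scale.

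Genes of reactive glia had the highest median of the lists. Of 10 tested astrocyte and gliosis markers, 5 were called higher (50%, against 10.6% of all entries), and the median was 1.27. EdgeR called 0 lower (0 at an unadjusted p under 0.05, 0 in DESeq2). Gfap (ENSMUSG00000020932) had 7.38, 6.64 and 7.28 CPM in CKO and 0.181, 0.413 and 0.270 CPM in Ctrl (4.65 ± 0.46, adjusted p 1.01e-05), and the ONC libraries held 1.94, 2.19 and 1.89 CPM, between both groups. Vim, another intermediate filament gene, averaged 28.3 ± 2.47 CPM in CKO and 12.5 ± 1.34 CPM in Ctrl (SD, n = 3 each; adjusted p 0.000332). Serpina3n, a serine protease inhibitor, had 2.97, 0.83 and 5.08 CPM in CKO and 0.0452, 0 and 0.0771 CPM in Ctrl, where no library passed the 3 counts taken as the floor (adjusted p 0.000827). The hyaluronan receptor gene Cd44 and the calcium-binding gene S100b were called (adjusted p 0.00895 and 0.0156), Cd44 not without CKO replicate 2 (0.0566) and S100b not without CKO replicate 3 (0.108).

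Of 20 Müller glia markers, all tested, 12 were called higher (60%, against 10.6% of all entries), and the median was 0.84. EdgeR called 0 lower (0 at an unadjusted p under 0.05, 0 in DESeq2). The 20 markers summed to 2250 to 2510 CPM in CKO and 1480 to 1520 CPM in Ctrl. Clu, which encodes the secreted chaperone clusterin, had 284, 296 and 299.9 CPM in CKO and 147, 131 and 136 CPM in Ctrl (1.09 ± 0.08, adjusted p 6.26e-07). Rlbp1, the retinal-binding protein gene of Müller glia, rose by 0.96 ± 0.12, the water channel gene Aqp4 by 1.05 ± 0.16, the glutamate transporter gene Slc1a3 by 1.04 ± 0.17, and Dbi by 0.74 ± 0.09. The rises within the list were thus unequal, with Crym far beyond the others.

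Some interferon-stimulated genes were higher. Of 23 tested, 7 were called higher, 1 lower and 15 not (10.6% and 9.09% of all entries were called higher and lower), and the median of 1.20 was among the largest of the lists. Ifit1, which binds foreign RNA caps, had 4.005, 4.68 and 2.47 CPM in CKO and 0.407, 0.138 and 0.386 CPM in Ctrl (3.51 ± 0.61, adjusted p 0.000974). The interferon pathway factor gene Irf9 rose by 1.41 ± 0.25 and the membrane gene Ifitm3 by 1.48 ± 0.27. Oasl2, Rtp4 and Ifi27 were also called higher. Oasl2 was not called without CKO replicate 1 or 3 (adjusted p 0.0585 and 0.0584), Rtp4 without CKO replicate 2, Ctrl replicate 2 or Ctrl replicate 3 (0.217, 0.085 and 0.067), and Ifi27 without CKO replicate 1, Ctrl replicate 1 or Ctrl replicate 3 (0.166, 0.106 and 0.105). Xaf1, a pro-apoptotic interferon target, was the lower call, with 43.4, 41.8 and 44.8 CPM in CKO and 106, 78.1 and 112 CPM in Ctrl (-1.19 ± 0.13, adjusted p 2.87e-05). Isg15, a classical interferon-induced gene, had at most 0.270 CPM in any of the 6 libraries and was not tested.

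The Ifit1 promoter is printed because it was the 1 of 6 genes looked up (Ifit1, Irf9, Ifitm3, Oasl2, Xaf1 and Psmb8) whose window matched the core of the interferon-stimulated response element (GAAA, any 2 bases, GAAA, on either strand, in capitals). It is again the 250 bases before the start from RefSeq, plus strand of chromosome 19 in GRCm38.p6.

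Ifit1 (chr19:34640639-34640888): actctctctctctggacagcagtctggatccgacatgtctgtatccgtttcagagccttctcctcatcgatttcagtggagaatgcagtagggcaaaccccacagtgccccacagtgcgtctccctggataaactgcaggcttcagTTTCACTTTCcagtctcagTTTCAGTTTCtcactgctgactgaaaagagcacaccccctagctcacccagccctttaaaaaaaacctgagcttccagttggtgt

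Ifit1 held 2 matches, 85 and 104 bases before the start, where 2.98% of the 32851 promoters held at least 1 and 0.18% at least 2. With the 50 bases after the start included, Ifitm3 also held 2 matches, and 3.44% of the promoters held at least 1. No match says only that these letters are not in the window.

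Class I antigen presentation genes also moved both ways, with 4 of 15 tested called higher and 1 lower (26.7% and 6.67%, against 10.6% and 9.09% of all entries). In the model of all 9 libraries 2 were higher and 1 lower. H2-D1, a class I heavy chain gene, had 46.7, 49.2 and 45.4 CPM in CKO and 21.6, 18.6 and 22.99 CPM in Ctrl (1.16 ± 0.14, adjusted p 7.22e-05). Its light chain gene B2m averaged 29.1 ± 8.01 CPM in CKO and 12.3 ± 1.47 CPM in Ctrl (SD, n = 3 each; adjusted p 0.000939, and 0.0569 in the model of all 9 libraries). Psmb8, a catalytic subunit of the immunoproteasome, rose by 2.89 ± 0.64. H2-T23, the non-classical class I gene Qa-1, had 51.3, 57.4 and 59.1 CPM in CKO and 123, 92.4 and 132 CPM in Ctrl (-1.05 ± 0.13, adjusted p 6.45e-05). Class I genes are near copies of each other, so their counts may be split between them.

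Of 11 tested complement, cytokine and chemokine genes, 4 were called higher by edgeR (36.4%, against 10.6% of all entries). It called 0 lower (0 at an unadjusted p under 0.05, 0 in DESeq2). Beside Edn2, the alarmin gene Il33 had 54.9, 63.4 and 56.7 CPM in CKO and 35.2, 27.6 and 26.1 CPM in Ctrl (0.98 ± 0.14, adjusted p 0.000295). The complement genes Serping1 and C4b were the other calls, at adjusted p 0.0147 and 0.0167. Serping1 was not called without CKO replicate 1 (adjusted p 0.059) or CKO replicate 3 (0.0906), and C4b was not called by limma voom (0.0747), in the model of all 9 libraries (0.0651), or without CKO replicate 1 (0.0935), CKO replicate 2 (0.0646), Ctrl replicate 1 (0.068) or Ctrl replicate 2 (0.0527). Of 6 tested markers of microglia and macrophages, 0 were called in either direction by edgeR (0 at an unadjusted p under 0.05, 0 in DESeq2), and their sum was 19.1 to 30.2 CPM in CKO and 22.1 to 24.7 CPM in Ctrl. Cx3cr1, the microglial fractalkine receptor gene, had 0.136, 0.0874 and 0 CPM in CKO and 0.273, 0.138 and 0 CPM in Ctrl.

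Of 23 tested axon injury and regeneration-associated genes, 7 were called higher and 3 lower (30.4% and 13%, against 10.6% and 9.09% of all entries), with a median of 0.46, and 6 and 1 with all 9 libraries. Atf3, an injury-induced transcription factor of neurons, had 17.2, 22.3 and 23.5 CPM in CKO and 8.86, 9.78 and 9.68 CPM in Ctrl (1.15 ± 0.20, adjusted p 0.00121). Lgals3, the galectin 3 gene, rose by 2.42 ± 0.55 and the LIM domain gene Csrp1 by 2.06 ± 0.50. Gap43, the growth cone protein gene, had 15.7, 17.5 and 18.4 CPM in CKO and 30.5, 23.8 and 35.8 CPM in Ctrl (-0.81 ± 0.18, adjusted p 0.00613). The microtubule regulator gene Stmn4 and the calcium channel subunit gene Cacna2d1 were the other lower calls, at -1.34 ± 0.41 and -0.82 ± 0.20. Stmn4 kept its call without CKO replicate 3 and lost it without any other single library (adjusted p 0.0614 to 0.116), and Cacna2d1 was not called with all 9 libraries (0.0519). Jun averaged 11.7 ± 0.53 CPM in CKO and 13.2 ± 3.35 CPM in Ctrl (SD, n = 3 each) and Sox11 had 2.56, 2.40 and 0.327 CPM in CKO and 0.362, 0.896 and 0.154 CPM in Ctrl, and neither was called (adjusted p 0.67 and 0.144). Sprr1a, known for its rise in injured neurons, did not pass the filter, with 0.990, 0.350 and 47.7 CPM in CKO and 0 in all 3 Ctrl libraries, so a single CKO library carried nearly all of its counts.

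Immediate early genes gave 4 higher and 3 lower calls of 17 tested (23.5% and 17.6%, against 10.6% and 9.09% of all entries). Junb had 13.96, 14.7 and 19.9 CPM in CKO and 5.92, 4.13 and 6.91 CPM in Ctrl (1.50 ± 0.26, adjusted p 0.00102). It shares 351 bases with Prdx2 on the opposite strand. Prdx2 was also called higher, with means of 523.8 CPM in CKO and 380.2 CPM in Ctrl (0.46, edgeR adjusted p 0.000732). The part of Prdx2 reads in the rise of Junb was not tested. Ier2 and Btg2 rose by 0.98 ± 0.18 and 0.56 ± 0.10. Nr4a2, a nuclear receptor gene induced by activity, fell by 1.45, as did the phosphatase gene Dusp1, which fell by 0.66 (adjusted p 0.0149, and 0.0716 without CKO replicate 1), and Npas4, an activity-dependent gene of neurons, which fell by 2.65 (adjusted p 0.0318). Npas4 kept its call without CKO replicate 1 and lost it without any other single library (0.0575 to 0.146). Of 14 DLK and JNK pathway genes, 2 were called higher and 2 lower (14.3% each, near the 10.6% and 9.09% of all entries). The JNK3 gene Mapk10 had 10.6, 9.44 and 10.4 CPM in CKO and 19.6, 21.4 and 20.1 CPM in Ctrl (-1.0 ± 0.19, adjusted p 0.00201, but 0.222 in limma on log2(FPKM + 1)).

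Of 25 antioxidant and glutathione genes, all tested, 11 were called higher and 1 lower (44% and 4%, against 10.6% and 9.09% of all entries), with a median of 0.41, and 6 were higher in the model of all 9 libraries and likewise without CKO replicate 1. Prdx6, a peroxiredoxin that reduces oxidised membrane lipids, had 156, 149.9 and 162 CPM in CKO and 53.2, 59.0 and 60.1 CPM in Ctrl (1.44 ± 0.09, adjusted p 2.73e-07). The copper ferroxidase gene Cp, a Müller glia marker too, rose by 1.33 ± 0.16, the catalase gene Cat by 1.30 ± 0.22, the glutathione transferase gene Gstm1 by 1.07 ± 0.20 and the lipid peroxidase gene Gpx4 by 0.58 ± 0.08. The lower call was the thioredoxin gene Txn1 (-0.35 ± 0.08, adjusted p 0.00854, but 0.311 with all 9 libraries).

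Of 22 tested integrated stress and unfolded protein response genes, 5 were called higher by edgeR (22.7%, against 10.6% of all entries). It called 0 lower (1 at an unadjusted p under 0.05, 1 in DESeq2), and the median was 0.02, near that of all entries. Nupr1, a small stress-induced chromatin protein, had 84.1, 74.8 and 84.7 CPM in CKO, 27.1, 34.4 and 23.9 CPM in ONC and 21.6, 31.7 and 21.3 CPM in Ctrl (CKO against Ctrl 1.72 ± 0.16, adjusted p 5.4e-06, CKO against ONC adjusted p 0.0121). Atf4, the transcription factor of this response, averaged 327 ± 17.3 CPM in CKO and 198 ± 13.0 CPM in Ctrl (SD, n = 3 each; adjusted p 2.21e-05). Ddit3, the pro-apoptotic factor CHOP, averaged 191 ± 5.35 CPM in CKO and 209 ± 10.2 CPM in Ctrl and was not called (adjusted p 0.273). In the model of all 9 libraries 2 of the list were higher, as also without CKO replicate 3 or Ctrl replicate 1. Of 14 heat shock genes, 6 were called higher by edgeR (42.9%, against 10.6% of all entries). It called 0 lower (0 at an unadjusted p under 0.05, 0 in DESeq2). Among the 6 were the heat shock factor gene Hsf1 (0.83 ± 0.18) and the co-chaperone gene Dnajb1 (0.52 ± 0.12). Those 2 were the ones called with all 9 libraries.

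Of 21 tested genes of the apoptosis and Trp53 list, edgeR called 0 higher (3 at an unadjusted p under 0.05, 0 in DESeq2 and voom) and 1 lower, where 10.6% and 9.09% of all entries were called. The lower one was Bax, the pore-forming death effector, with 20.9, 19.5 and 19.4 CPM in CKO and 31.8, 27.7 and 30.9 CPM in Ctrl (-0.60 ± 0.16, adjusted p 0.0142). Its call was not made in the model of all 9 libraries (adjusted p 0.0584), without CKO replicate 3 (0.0527) or without Ctrl replicate 1 (0.0539). Phlda3 and Casp9 had the lowest p of the others, at log2 fold changes of 1.31 ± 0.52 and 0.77 ± 0.32 (adjusted p 0.0918 and 0.114).

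**Figure D4:**
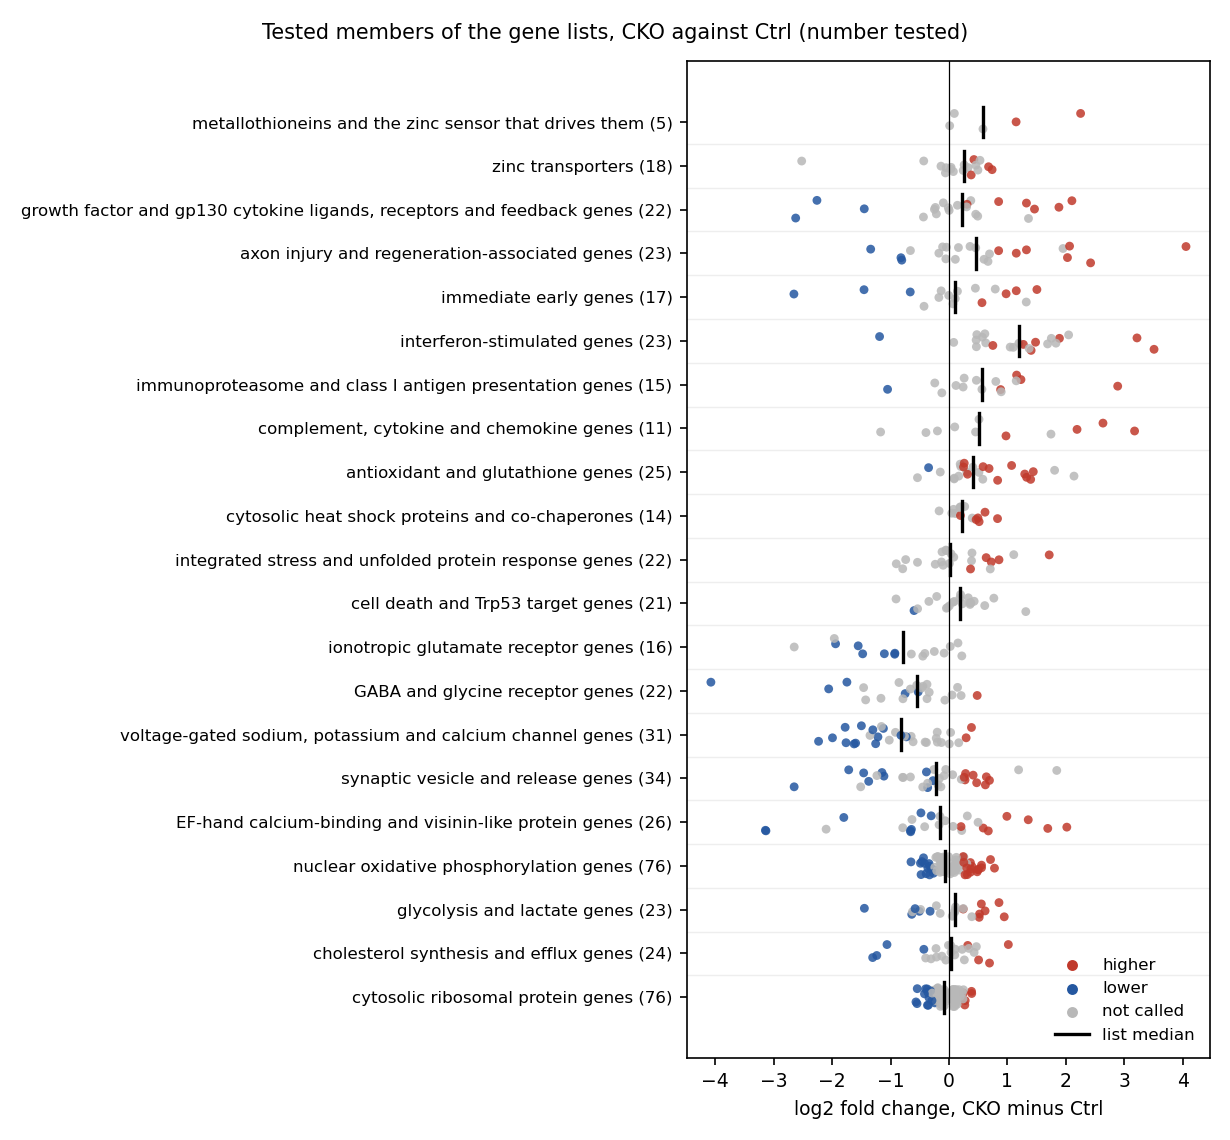
Log2 fold change (CKO minus Ctrl) of each tested member of 21 gene lists, coloured by call, with the list median as a black bar and the number tested in parentheses. Medians were above 0.4 for metallothionein, axon injury, interferon, antigen presentation, complement and antioxidant lists and below -0.5 for glutamate receptor, GABA and glycine receptor and ion channel lists.

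Some neurotransmitter receptor and channel genes were lower in CKO. Of 16 tested ionotropic glutamate receptor genes, 6 were called lower and 0 higher (0 at an unadjusted p under 0.05, 0 in DESeq2), against 9.09% lower among all entries, and the median was -0.78. Gria2, the AMPA receptor subunit that limits calcium entry (ENSMUSG00000033981), had 80.0, 91.7 and 82.9 CPM in CKO and 162, 168 and 154 CPM in Ctrl (-0.93 ± 0.09, adjusted p 8.95e-06). The AMPA receptor genes Gria3 and Gria4 had log2 fold changes of -1.94 and -1.55. With limma on log2(FPKM + 1), 3 genes of the list were lower. Of 22 GABA and glycine receptor genes, 5 were called lower and 1 higher (22.7% and 4.55%, against 9.09% and 10.6% of all entries). The median was -0.54, and 3 were lower in the model of all 9 libraries. Gabra2 averaged 4.18 ± 1.10 CPM in CKO and 14.04 ± 2.38 CPM in Ctrl, and the glycine receptor gene Glra3 averaged 3.13 ± 1.53 CPM in CKO and 13.1 ± 1.14 CPM in Ctrl (SD, n = 3 each; adjusted p 0.000512 and 0.000959). The higher one was Gabrr2, a rho subunit typical of bipolar cells (0.48 ± 0.12, adjusted p 0.0132), which was not called in the model of all 9 libraries (0.145) or without CKO replicate 3 (0.0526).

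Voltage-gated channel genes gave the most lower calls of the signalling lists, 13 of 31 (41.9%, against 9.09% of all entries). Higher calls were 2 (6.45%, against 10.6%), and the median was -0.82 (1 higher and 8 lower with all 9 libraries). Kcnip1, an A-type potassium channel partner, had 5.40, 5.94 and 5.22 CPM in CKO and 24.2, 17.2 and 24.5 CPM in Ctrl (-1.99 ± 0.23, adjusted p 3.3e-05). The sodium channel gene Scn1a fell by 2.23, the potassium channel gene Kcnd3 fell by 1.50 and the calcium channel subunit gene Cacnb4 fell by 1.25. The higher calls included Kcnv2, a potassium channel gene of photoreceptors (0.29 ± 0.07, adjusted p 0.0125, but 0.197 with all 9 libraries and 0.0688 without CKO replicate 1).

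Synaptic vesicle and release genes split, with 8 of 34 higher and 9 lower (23.5% and 26.5%, against 10.6% and 9.09% of all entries). Their median was -0.22, and 2 were higher and 7 lower with all 9 libraries. The higher ones included Sv2b, a vesicle glycoprotein gene, with 335, 331 and 318 CPM in CKO and 195, 230.3 and 184 CPM in Ctrl (0.69 ± 0.09, adjusted p 7.82e-05), and the vesicle SNARE gene Vamp2, at 0.62 ± 0.10 (adjusted p 0.0703 with all 9 libraries). The lower ones included its paralog Sv2c, with 4.65, 3.65 and 5.30 CPM in CKO and 17.1, 11.98 and 15.6 CPM in Ctrl (-1.72 ± 0.26, adjusted p 0.00036), the vesicle GTPase gene Rab3c (-1.11 ± 0.15), and the synapsin gene Syn1 (-1.15 ± 0.22). Calcium-binding protein genes split in the same way, with 7 of 26 higher and 8 lower (26.9% and 30.8%). With all 9 libraries 5 were higher and 4 lower, and 5 were lower without CKO replicate 3 or Ctrl replicate 1. S100a6 rose by 1.69 ± 0.20, the visinin-like gene Hpcal1 by 0.99 ± 0.12 and the photoreceptor synapse gene Cabp4 by 0.67 ± 0.07. Beside Calb1, Caln1 fell by 3.14 and Vsnl1 fell by 1.80, and Calm2, a calmodulin gene, averaged 1678 ± 104 CPM in CKO and 2643 ± 139 CPM in Ctrl (SD, n = 3 each; adjusted p 9.53e-06, but 0.259 in the model of all 9 libraries).

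Markers of amacrine, horizontal and ganglion cells gave lower calls beside these genes. Of 16 tested amacrine cell markers, 8 were called lower (50%, against 9.09% of all entries) and 0 higher (0 at an unadjusted p under 0.05, 0 in DESeq2). The median was -1.21, and the 22 of the list summed to 233 to 271 CPM in CKO and 604 to 674 CPM in Ctrl. Tfap2b, a transcription factor of amacrine cells (ENSMUSG00000025927, chromosome 1, 19208914 to 19238576), had 27.1, 30.03 and 30.8 CPM in CKO, 63.7, 52.1 and 70.3 CPM in ONC and 142, 142 and 151 CPM in Ctrl. It fell by 2.31 (adjusted p 6.36e-09), and CKO was also below ONC (adjusted p 0.0121). Gad1, which makes GABA, had 31.1, 28.9 and 46.3 CPM in CKO and 130, 141 and 143 CPM in Ctrl (-1.96 ± 0.15, adjusted p 1.22e-06). Gad2, the eye field gene Pax6 and Tfap2a were also lower, with log2 fold changes of -2.23 to -1.13. Th, the enzyme gene of dopaminergic amacrine cells, was not tested and was listed at 0 in all 3 CKO libraries, with 2.40, 2.69 and 0.193 CPM in Ctrl. The knockout was made in amacrine cells, so lower amacrine RNA, the crush and the genotype coincide here, and the part of amacrine RNA in the falls of receptor and channel genes was not tested.

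Of 9 tested horizontal cell markers, 5 were called lower and 1 higher (55.6% and 11.1%, against 9.09% and 10.6% of all entries). Lower calls were 3 without CKO replicate 2 or 3. Calb1 and Tfap2a were shared with the calcium-binding and amacrine lists. The bicarbonate exchanger gene Slc4a3 averaged 3.42 ± 0.858 CPM in CKO and 18.3 ± 2.90 CPM in Ctrl (SD, n = 3 each, adjusted p 2.62e-05). Of 18 tested ganglion cell markers, 4 were called lower (22.2%) and 0 higher (0 at an unadjusted p under 0.05, 0 in DESeq2), with a median of -0.81. With all 9 libraries 2 were lower, as also without CKO replicate 1, CKO replicate 3 or Ctrl replicate 2. DESeq2 called 7 lower. Chrnb3, a nicotinic receptor subunit gene, had 4.91, 4.82 and 7.28 CPM in CKO and 16.3, 14.2 and 15.9 CPM in Ctrl (-1.45 ± 0.25, adjusted p 0.000935). The other lower calls were Gap43, Chrna6 and the neurofilament gene Nefl (adjusted p 0.044 for Nefl), and the last was lost in the model of all 9 libraries (0.104) and without any one of CKO replicates 1, 2 and 3 or Ctrl replicates 2 and 3 (0.0571 to 0.283). Chrna6 was likewise not called with all 9 libraries (0.267) or without any one library other than CKO replicate 2 (0.0612 to 0.123). Rbpms, a pan-ganglion cell RNA-binding protein, averaged 1.40 ± 0.29 CPM in CKO and 3.67 ± 1.41 CPM in Ctrl, and Pou4f1 0.268 ± 0.241 CPM in CKO and 1.38 ± 1.24 CPM in Ctrl (SD, n = 3 each), and neither was called (adjusted p 0.0567 and 0.0972). Rbpms was called lower under 5 of the 19 alternatives, namely DESeq2 (0.0335), library totals (0.0462), a stricter filter (0.031), limma on log2(FPKM + 1) (0.0496) and without Ctrl replicate 3 (0.0403).

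Of 18 rod markers, 12 were called higher and 2 lower (66.7% and 11.1%, against 10.6% and 9.09% of all entries). The median was 0.41, and the markers summed to 103000 to 106000 CPM in CKO and 88500 to 90200 CPM in Ctrl. With all 9 libraries 6 were higher and 1 lower. Sag, the rod arrestin that ends the light response (ENSMUSG00000056055), had 12660, 11470 and 12060 CPM in CKO and 5591, 5605 and 5027 CPM in Ctrl (1.16 ± 0.06, adjusted p 3.59e-08). The axonemal gene Rp1 fell by 0.45 and Pdc, which binds transducin subunits, fell by 0.38 (adjusted p 0.000159, but 0.362 with all 9 libraries). Of 13 tested cone markers, 6 were called higher (46.2%) and 0 lower (0 at an unadjusted p under 0.05, 0 in DESeq2). Arr3, the cone arrestin gene, had 664, 681 and 722 CPM in CKO and 228, 266 and 219 CPM in Ctrl (1.54 ± 0.08, adjusted p 4.45e-08), and Gnb3 rose by 1.09 ± 0.11. Of the genes that shut off phototransduction, which include both arrestins, 9 of 16 were higher and 2 lower (56.2% and 12.5%). Their median was 0.26, and 4 were higher with all 9 libraries. Of 18 bipolar cell markers, 2 were higher (Otx2 and Trpm1) and 2 lower (1 without CKO replicate 1, 2 or 3 or Ctrl replicate 2, and 0 without Ctrl replicate 1), and the median was -0.05; the shares of 11.1% each were near the 10.6% and 9.09% of all entries.

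**Figure D5:**
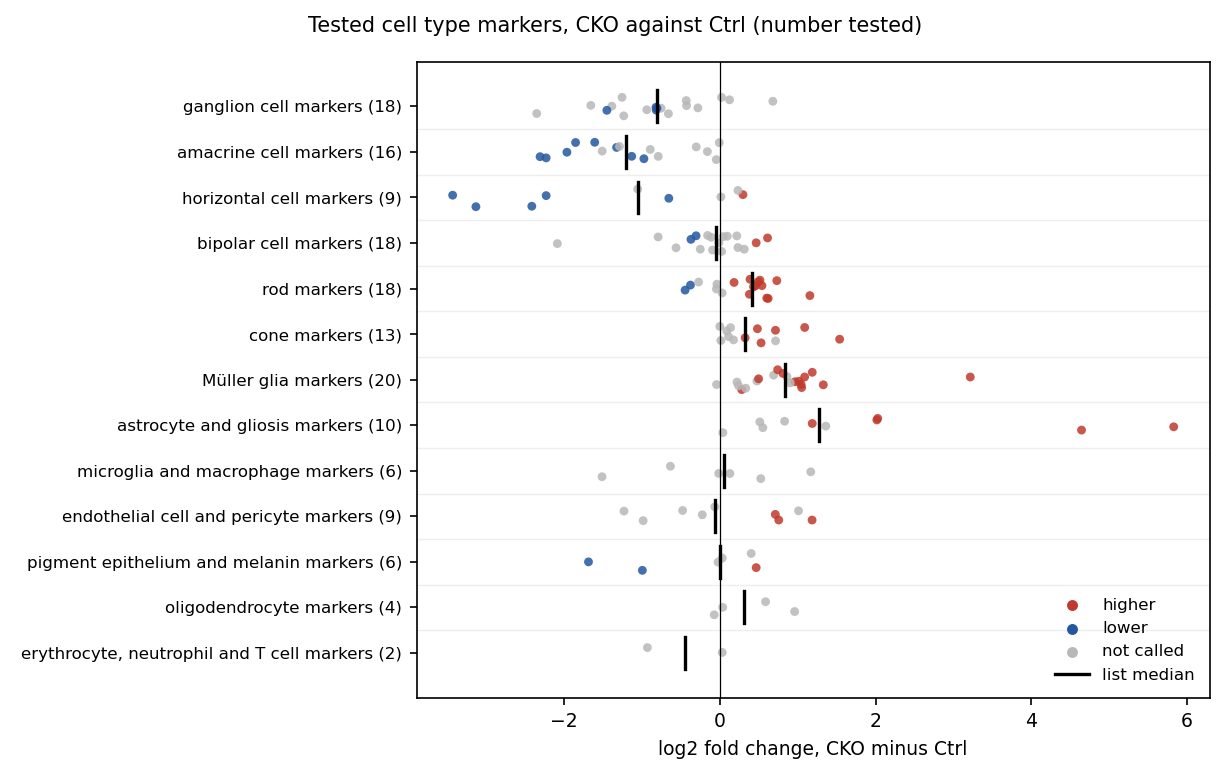
Log2 fold change (CKO minus Ctrl) of each tested member of 13 cell type marker lists, coloured by call, with the list median as a black bar and the number tested in parentheses. Amacrine, horizontal and ganglion cell medians lay at -1.21, -1.05 and -0.81, and Müller glia and gliosis medians at 0.84 and 1.27.

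Other cell types gave few values. Of 9 tested endothelial cell and pericyte markers, edgeR called 3 higher (33.3%, against 10.6% of all entries). It called 0 lower (1 at an unadjusted p under 0.05, 0 in DESeq2). The median was -0.06, with 4 log2 fold changes above 0 and 5 below. The 3 were Vtn, Kdr and Flt1 (Flt1 at edgeR adjusted p 0.0674 without CKO replicate 3). Pecam1, a pan-endothelial marker, had 1.69, 1.63 and 2.75 CPM in CKO and 3.76, 2.77 and 5.47 CPM in Ctrl and was not called. The melanin genes Dct and Tyr fell, Dct with 119, 137 and 138 CPM in CKO and 424, 338 and 509 CPM in Ctrl (-1.69 ± 0.12, adjusted p 6.38e-07), but Rpe65, which defines pigment epithelium, had 0, 0 and 0.466 CPM in CKO and 0 in all 3 Ctrl libraries. Of 17 crystallin genes only 6 were tested, and edgeR called 3 higher (50%, against 10.6% of all entries) and 0 lower. The 3 were Crym, Cryab and Cryl1, the last not without any one library other than Ctrl replicate 1 (adjusted p 0.0581 to 0.163). The other tested members, Cryz, Cryba2 and Crybb3, were not called (edgeR adjusted p 0.868, 0.514 and 0.846). Myelin and blood cell lists gave 0 calls among 4 and 2 tested members by edgeR (1 and 0 at an unadjusted p under 0.05, 0 in DESeq2).

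Metabolic and ribosomal genes changed by small amounts in both directions. Of 76 nuclear oxidative phosphorylation genes, 16 were called higher and 14 lower (21.1% and 18.4%, against 10.6% and 9.09% of all entries). The median was -0.06. In the model of all 9 libraries edgeR called 5 higher and 0 lower. With 6 libraries 20 were lower at an unadjusted p under 0.05, and 15 in DESeq2. The complex III core gene Uqcrc1 had 562, 508 and 533 CPM in CKO and 299, 343 and 293 CPM in Ctrl (0.78 ± 0.08, adjusted p 1.02e-05), and the complex I gene Ndufv1 rose by 0.71 ± 0.07. Cox7c, a small complex IV subunit gene, averaged 358 ± 22.8 CPM in CKO and 562 ± 53.9 CPM in Ctrl (SD, n = 3 each; -0.65 ± 0.08, adjusted p 7.58e-05, and 0.0504 with all 9 libraries). Among 23 tested glycolysis and lactate genes 7 were higher and 5 lower (30.4% and 21.7%). With all 9 libraries 4 were higher and 3 lower. Ldha, which makes lactate, had 1889, 1803 and 1987 CPM in CKO and 1009, 1040 and 1089 CPM in Ctrl (0.86 ± 0.06, adjusted p 6.57e-07), and Eno1 rose by 0.55 ± 0.06. Pfkp fell by 0.64, and the pyruvate dehydrogenase kinase genes Pdk3 and Pdk1 went apart, at 0.95 ± 0.13 and -1.45 ± 0.22. Of 76 ribosomal protein genes 5 were called higher and 14 lower (6.58% and 18.4%), with a median of -0.08. The falls were led by Rpl35 and Rpl37 at -0.55 and -0.56. The lower calls were 3 without CKO replicate 1, 7 without CKO replicate 2, 6 without Ctrl replicate 1 and 4 without Ctrl replicate 3. With all 9 libraries 0 ribosomal genes were higher and 3 lower (edgeR; 10 higher at an unadjusted p under 0.05 with 6 libraries, and 6 in DESeq2). With a correction for GC content and length, 15 oxidative phosphorylation genes were higher and 21 lower, and 3 ribosomal genes were higher and 22 lower. Ribosomal genes have many processed copies in the genome, so their counts may be shared. Of 24 cholesterol genes 4 were higher and 4 lower (16.7% each), and 1 was higher and 2 lower with all 9 libraries. Insig1, which restrains cholesterol synthesis, fell by 1.06, while the lipoprotein gene Apoe, a Müller glia marker, averaged 173 ± 5.93 CPM in CKO and 85.6 ± 17.7 CPM in Ctrl (SD, n = 3 each; adjusted p 7.55e-05, and 0.052 with all 9 libraries).

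Genes close to Slc30a3 on chromosome 5 were looked at because knockout lines can carry flanking DNA of another strain. Of 38 tested entries within 1 Mb, 3 were higher and 4 lower, 18.4%, against 19.7% over all entries, and within 10 Mb the share was 14.7% of 156. Cgref1 had 34.4, 44.0 and 42.6 CPM in CKO and 105, 72.3 and 113 CPM in Ctrl (-1.27 ± 0.16, adjusted p 7.34e-05), and Tmem214 fell by 0.92. Fndc4 and Mpv17 rose by 0.77 ± 0.15 and 0.58 ± 0.09 and were not called with all 9 libraries (adjusted p 0.0634 and 0.0684). Eif2b4, 4930548H24Rik and Mrpl33 were the other calls, at adjusted p 0.0088, 0.0184 and 0.0251. 4930548H24Rik was not called without any one library other than Ctrl replicate 1 (0.0528 to 0.0617), and Mrpl33 not without any one other than CKO replicate 2 (0.0524 to 0.125). All 6 libraries held RNA of Y-linked genes, whose sum was 434 to 495 CPM in CKO and 525 to 546 CPM in Ctrl, and Eif2s3y fell by 0.31 (adjusted p 0.0134, but 0.414 with all 9 libraries, and 0.0504, 0.073 and 0.0513 without CKO replicate 1, CKO replicate 3 or Ctrl replicate 2).

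Calls also differed with the expression level, kind and length of the transcript. In the fifth of genes with the lowest mean CPM over the 6 libraries, 5.27% were called in either direction. In the fifth with the highest mean CPM, 40.4% were called. The shares of the gene lists were set against all entries and not against genes of a similar level. The part of expression level in the shares of abundant lists, such as rod and oxidative phosphorylation genes, was not tested. Among 1477 tested loci that the authors had assembled without a gene name, 2.03% were higher and 15.9% lower, with a median of -0.39, against 11.5% and 8.36% of 13840 Ensembl genes and a median of 0.03. These loci took 2.32% to 2.46% of the counts in CKO and 3.18% to 3.50% in Ctrl. In the fifth of genes with the longest exonic length, 5.89% were higher and 12.9% lower, and in the fifth with the shortest, 17.5% and 8.53%. Many ion channel, receptor and adhesion genes are long, and the part of transcript length in their falls was not tested. With a correction for GC content and length, 12 channel genes, 4 glutamate receptor genes and 8 amacrine markers were called lower, against 13, 6 and 8 without it.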

How the data were processed

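RNA of the sorted cells was amplified with a whole-transcriptome kit and made into libraries by tagmentation, per the labels' protocols. Reads were trimmed with Trimmomatic 0.36 and the builds GRCm38 and mm10 are named, per the submitters' processing notes; the aligner and the counting tool are not given in the sources used here. The authors' deposited table holds an expected count and an FPKM value per gene and library, per the file headers. Strand is claimed in the labels, yet tagmentation alone does not record it, so a gene's reads and those of an antisense partner cannot be told apart. The column numbers of the ONC libraries did not match single labels, so those columns were used as a group. The table's 3 further columns of values were not used.

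Each expected count was rounded to a whole number, and tests were run with edgeR 4.0.16 in R 4.3.3 (filterByExpr, TMM scaling, robust quasi-likelihood F-test, Benjamini-Hochberg adjustment over 15317 entries, adjusted p under 0.05) on the 6 CKO and Ctrl libraries. The method was tested on simulated data. CPM values are on the TMM scale of these 6 libraries, and every log2 fold change is CKO minus Ctrl. The floor is 3 counts in a library and covers counting error only. A model of all 9 libraries gave the CKO against ONC values. Alternatives used DESeq2 1.42.0, limma 3.58.1 (voom, and log2(FPKM + 1) or log2(FPKM + 0.1)), other scalings and filters, a GC and length correction and leaving out each library. Gene positions are those of GENCODE on GRCm38, which 21956 entries matched.

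Genes were named by a rule: the 15 largest rises and 15 largest falls with a mean of at least 4 CPM and no overlap between groups, the 5 lowest-p members per list, a set of 16 injury and zinc genes, calls within 1 Mb of Slc30a3 and Y-linked genes. Not every gene under the rule is described, and a few are not reported here. Further called or untested list members were named after their values were seen. The gene lists and members were chosen with earlier results of these data known.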

Additional observations from a re-analysis of the deposited data

How the results depend on the processing

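The count of calls depended most on the libraries in the model. With all 9 libraries in one model, 689 entries were higher and 710 lower, against 1628 and 1392 with 6 libraries; the cause was not tested. Without 1 library at a time, 1068 to 1438 were higher and 995 to 1216 lower, and without CKO replicate 1 the higher count was 1068. Pairing by replicate number was not seen in the values. Deviations from the group mean correlated at r = 0.006, 0.018 and 0.014 for same-numbered CKO and Ctrl libraries. For differently numbered ones r was -0.034 to 0.021. With 3 libraries per group, this cannot show that same-numbered samples were handled apart. A fit with the replicate block called 1527 higher and 1278 lower. Of 3221 comparisons over 170 named genes and 19 alternatives, 3055 kept the direction and the side of the threshold, 158 lost the call, 8 gained one and 0 changed direction past a call. For 126 of the genes each alternative gave the same side. Limma on log2(FPKM + 1) called 1094 higher and 1292 lower, and without an expression filter 1786 and 1338 were called. Genes with few counts, such as Slc30a3, could not be tested at this depth.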

Other observations

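Some abundant genes outside the lists, chosen after their values were seen, were among the lowest p of the table. Spc24, a kinetochore gene, had 163, 165 and 201 CPM in CKO and 874, 759 and 958 CPM in Ctrl (log2 fold change -2.29 ± 0.10 SE, edgeR adjusted p 6.36e-09). The SUMO protease gene Senp1 averaged 142 ± 6.05 CPM in CKO and 559.9 ± 61.7 CPM in Ctrl (SD, n = 3 each), and Sympk, a scaffold of RNA 3' end processing, 162 ± 20.1 CPM in CKO and 586 ± 98.6 CPM in Ctrl. Ilf2, an RNA-binding protein gene, and Kdm5a, a histone demethylase gene, had log2 fold changes of -1.42 and -1.30. Among the rises, the inositol phosphate kinase gene Ip6k2 averaged 295 ± 11.5 CPM in CKO and 122 ± 4.48 CPM in Ctrl (SD, n = 3 each). In ONC, Ip6k2 had 449.7, 413 and 397 CPM. For each of these 6 genes the CKO libraries did not overlap the Ctrl libraries, and the direction and the call were the same under each of the 19 alternatives. Genes picked for a low p tend to show both, so neither is separate evidence. Whether other genes overlap these 6 was not looked up.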
